A study of Mus musculus and Homo sapiens with 8 samples.

Results

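The genes described here encode albumin, alpha-fetoprotein and 8 other proteins that liver cells secrete into blood plasma. They were chosen by identifier, as a fixed list of 10 genes among the 60675 identifiers of the deposited tables, with names taken from that list. The rule uses no measured value, but the genes were chosen with earlier results of these data known. All 10 were found, and all 10 passed the filter on low counts that left 14389 genes to test. Values come from HepG2, an established human liver carcinoma cell line that secretes many plasma proteins in culture. HepG2 cells at 25 population doublings were kept for 24 h with arsenite, a trivalent arsenic oxyanion that binds protein thiols, or for 24 h with water as the control. The labels give 5 nM for arsenite and print the same figure on the water controls. Each group held 2 samples, whose origin from separate cultures is not stated. The p-values of the main test set each change against a spread between these samples that is shared across genes, and that spread may be technical. The other 4 samples of the series, from NIH3T3 mouse fibroblasts, carry values under human identifiers to which they do not belong and are not used here.

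Plasma proteins of this kind are made by hepatocytes without a prior stimulus, pass through the endoplasmic reticulum and the Golgi, and leave the cell without being stored. They include carriers of hormones, vitamins and metals, protease inhibitors, and zymogens of blood clotting. Alpha-fetoprotein is the fetal relative of albumin, encoded beside it in the genome, and is largely silenced after birth but often expressed in liver carcinoma. HepG2 cells express both, and both serve as markers of the hepatocyte lineage.

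The 4 HepG2 libraries held 26965049 to 27481613 counts, and the members took between 1761 and 163801 counts each in a library, so that counting error (1 SD) was at most 2.38% of a value. All 10 genes, the hepatocyte markers albumin and alpha-fetoprotein among them, were detected in every library. Values per library are given as CPM, which scale counts to the library total, and values per gene length as RPKM, which also divide by the length of the gene, recomputed with each library's own total. Fold changes come from edgeR's quasi-likelihood test, which scales libraries by TMM, a trimmed mean of log ratios, and a gene counted as called at an adjusted p (Benjamini-Hochberg over all genes tested) under 0.05. TMM factors were 1.02 and 1.04 for the water libraries and 0.96 and 0.98 for the arsenite libraries. Fitted folds are therefore slightly higher than the ratio of the plain CPM values. The ranges of adjusted p over 18 alternatives given below include fits to the deposited RPKM. Only 7.14% of the deposited HepG2 RPKM were divided by their own library's total. Except for albumin, the upper end of each range came from these fits.

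After arsenite, prothrombin, vitronectin, alpha-1-antitrypsin and retinol-binding protein transcripts rose 1.322- to 1.503-fold, whereas albumin and alpha-fetoprotein had fitted folds of 0.903 and 0.910 and did not pass the test. Of the 10 genes, 4 (40%) were called higher and 0 lower in edgeR. An unadjusted p under 0.05 was reached by 7 of the 10, and by 5886 of all 14389 genes tested (edgeR). DESeq2 called 6 higher and limma-voom 5, and both called 0 lower. Over all genes, DESeq2 called 1744 of 12384 higher and 1959 lower, and limma-voom called 1764 of 14389 higher and 2744 lower. In edgeR, 30.6% of all genes tested were called, 11.8% higher and 18.8% lower. Abundant genes differed from this average: among the 2779 genes at least as abundant as the lowest of the 10, 27.3% were called higher and 12.1% lower. The median log2 fold change was 0.36 over the 10 genes, 0.18 over those equally abundant genes and -0.02 over all genes tested. Both arsenite libraries lay above both water libraries for 8 of the 10 genes, an arrangement found for 25.5% of all genes tested. Shares of such arrangements, here and below, were taken over all genes tested and were not computed for the equally abundant genes. In bulk RNA, a change in the share of cells that express a gene and a change in its RNA per cell cannot be told apart.

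**Figure D1:**
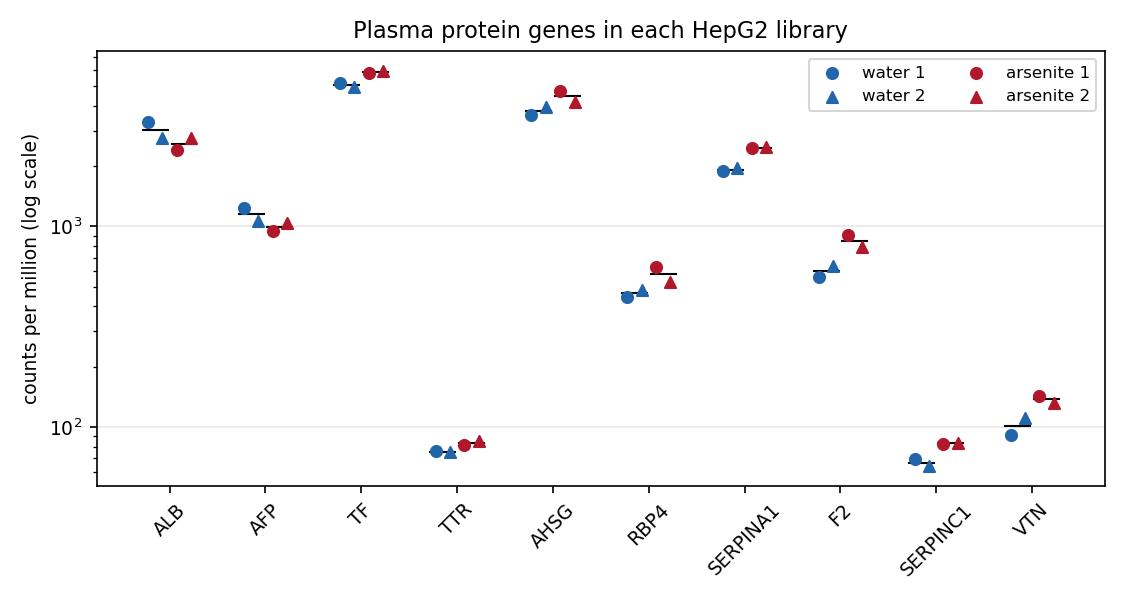
CPM of each of the 10 genes (log axis) in the 4 HepG2 libraries, with blue symbols for water, red for arsenite, circles for replicate 1, triangles for replicate 2 and a line at each group's mean (n = 2). Both arsenite libraries lie above both water libraries for 8 genes, both lie below for AFP, and the groups overlap for ALB.

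Albumin (ALB, ENSG00000163631), the main carrier of fatty acids and the protein that sets the oncotic pressure of plasma, was measured at 3298 and 2749 CPM with water and at 2392 and 2773 CPM with arsenite. The first water library was the highest and the first arsenite library the lowest, while the other two lay within 1% of each other, so the groups overlapped. The group means were 3023 ± 388 and 2582 ± 269 CPM (SD, n = 2). The fitted log2 fold change was -0.15 (SE 0.14; adjusted p = 0.464, edgeR). Its 95% interval, a fold of 0.742 to 1.10, holds no change as well as a fall. Leaving out water 1 turned the estimate to 0.0098 (adjusted p = 0.985, edgeR), the highest of a range of 0.216 to 0.985 over 18 alternatives, none of which called the gene.

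Alpha-fetoprotein (AFP, ENSG00000081051), a fetal carrier protein and a serum marker of liver carcinoma, was highest in water 1 and lowest in arsenite 1, as albumin was. The remaining libraries stood in the opposite order to that of albumin. Alpha-fetoprotein stood at 1243 and 1066 CPM with water and at 952 and 1035 CPM with arsenite. Both arsenite libraries thus lay just below both water libraries. This arrangement was found for 41.2% of all genes tested. Its log2 fold change of -0.14 (SE 0.15) did not pass edgeR's test (adjusted p = 0.522), and the 95% interval ran from a fold of 0.742 to 1.12. Within single libraries, 0.377 and 0.388 AFP counts were found per ALB count with water, and 0.398 and 0.373 with arsenite. The ratio does not depend on any scaling between libraries, and its groups overlapped, at 0.382 ± 0.0076 and 0.386 ± 0.017 (SD, n = 2).

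Transferrin (TF, ENSG00000091513), the iron carrier of plasma, took the most counts of the 10 genes and ranked between the 9th and the 11th of all genes by CPM. It was measured at 5172 and 4963 CPM with water and at 5813 and 5987 CPM with arsenite. The libraries of a group differed 1.04-fold and 1.03-fold and the groups did not overlap, yet the log2 fold change of 0.30 (SE 0.14) missed the threshold (adjusted p = 0.0868, edgeR). The transferrin gene has the longest recovered length of the 10, 8565 bp. With each library's trend with gene length removed, its log2 fold change was 0.46 and it was called (adjusted p = 0.00502, edgeR, of 0.00502 to 0.823 over 18 alternatives).

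Transthyretin (TTR, ENSG00000118271), which carries thyroxine and holds retinol-binding protein in the circulation, was far less abundant. It had 76.2 and 74.9 CPM with water and 82.0 and 85.0 CPM with arsenite. Both arsenite libraries were higher, by a small margin. The log2 fold change of 0.23 (SE 0.17; adjusted p = 0.325, edgeR) had a 95% interval from a fold of 0.927 to 1.48. None of the 18 alternatives called transthyretin.

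Its partner, retinol-binding protein (RBP4, ENSG00000138207), which carries vitamin A from the liver, rose. It was measured at 448 and 484 CPM with water and at 631 and 532 CPM with arsenite. The first arsenite library was the highest and differed 1.19-fold from the second, more than the water libraries differed from each other (1.08-fold). The log2 fold change was 0.40 (SE 0.15; adjusted p = 0.0340, edgeR). The call was lost without water 1 (adjusted p = 0.270, edgeR), water 2 (0.0863) or arsenite 1 (0.409), and with scaling to library size alone (0.0980). Over 18 alternatives the adjusted p ran from 0.0181 to 0.928. With arsenite 1 left out, the log2 fold change was 0.28.

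Fetuin-A (AHSG, ENSG00000145192) binds calcium phosphate and limits its precipitation in serum. It was the most abundant of the 10 genes per length, and it stood at 3585 and 3945 CPM with water against 4744 and 4178 CPM with arsenite. Arsenite 1 was again the highest library and water 1 the lowest. With a log2 fold change of 0.33 (SE 0.14) the gene missed the threshold (adjusted p = 0.0627, edgeR). It was called by DESeq2 (0.0497), by limma-voom (0.0444), without a filter on low counts (0.0294) and without arsenite 2 (0.0101), within a range of 0.0101 to 0.494 over 18 alternatives.

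Of the protease inhibitors, alpha-1-antitrypsin (SERPINA1, ENSG00000197249), which inhibits neutrophil elastase, rose with the closest replicates among the called genes. It was measured at 1882 and 1960 CPM with water and at 2449 and 2482 CPM with arsenite. The libraries of a group differed 1.04-fold and 1.01-fold, against a log2 fold change of 0.44 (SE 0.15), 1.36-fold, between groups (adjusted p = 0.0123, edgeR). The estimate stayed between 0.43 and 0.50 when any library was left out. The adjusted p nevertheless rose to 0.160 without water 1, to 0.0654 without water 2 and to 0.0529 without arsenite 1 (edgeR), of 0.00295 to 0.686 over 18 alternatives. Each fit with a library left out held 3 libraries, and the reason for the lost calls was not tested.

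Antithrombin (SERPINC1, ENSG00000117601), the main plasma inhibitor of thrombin, was measured at 69.2 and 64.1 CPM with water and at 82.4 and 83.5 CPM with arsenite. The arsenite libraries nearly coincided and lay above both water libraries. Its log2 fold change of 0.40 (SE 0.17) was close to that of retinol-binding protein, and it missed the threshold (adjusted p = 0.0635, edgeR). DESeq2 (0.0223) and edgeR with RLE scaling (0.0493) called it, of 0.0223 to 0.657 over 18 alternatives.

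Prothrombin (F2, ENSG00000180210), the zymogen of thrombin and thus the target of antithrombin, had the largest fitted change of the 10 genes. It was measured at 559 and 635 CPM with water and at 904 and 789 CPM with arsenite. All 4 libraries were ordered as for retinol-binding protein, fetuin-A and vitronectin, from water 1 over water 2 and arsenite 2 to arsenite 1. The log2 fold change was 0.59 (SE 0.15), 1.503-fold with a 95% interval of 1.22 to 1.85 (adjusted p = 0.00117, edgeR). Prothrombin was the 1 member of the 10 that also passed a test against a fold of 1.2. It lost the call without water 1 (adjusted p = 0.0935) and without arsenite 1 (0.0835, edgeR), of 0.000621 to 0.704 over 18 alternatives.

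Vitronectin (VTN, ENSG00000109072), an adhesive glycoprotein of plasma and matrix that stabilises the plasminogen activator inhibitor PAI, rose by a similar factor at a lower level. It had 91.9 and 111 CPM with water and 144 and 132 CPM with arsenite. The water libraries differed 1.21-fold, the widest gap between replicates among the 10 genes, and both lay below both arsenite libraries. The log2 fold change was 0.53 (SE 0.17), 1.44-fold (adjusted p = 0.00831, edgeR). Without water 1 the adjusted p was 0.209, and without arsenite 1 it was 0.201 (edgeR), of 0.00327 to 0.477 over 18 alternatives.

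**Figure D2:**
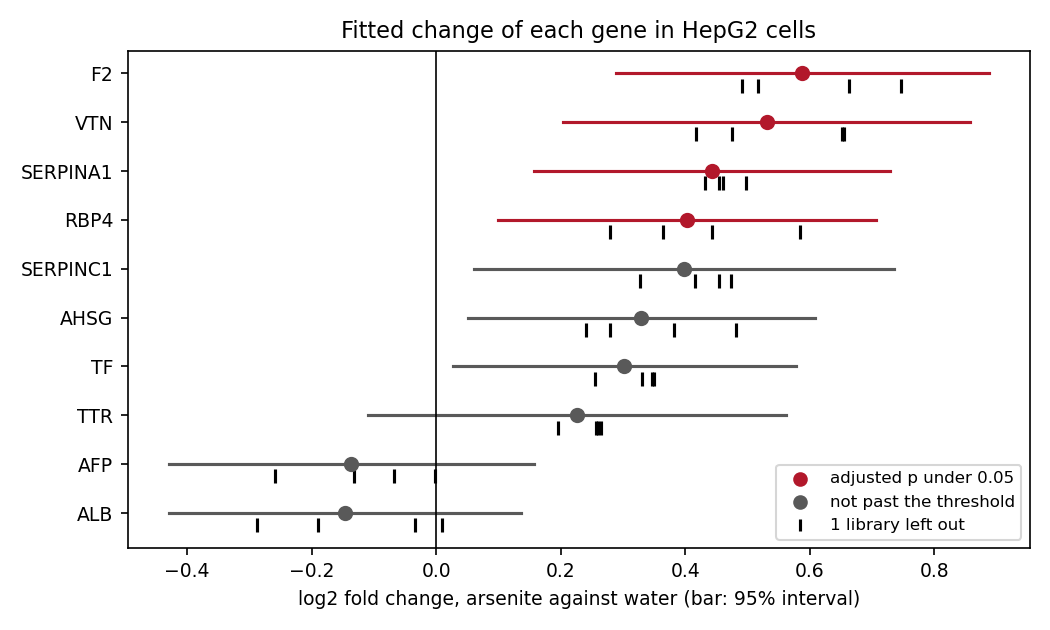
Fitted log2 fold change of each gene (point) with its unadjusted 95% interval (bar), red where the adjusted p was under 0.05, and the estimates with 1 of the 4 HepG2 libraries left out (ticks). F2, VTN, SERPINA1 and RBP4 are red, all ticks of 8 genes lie above 0, and the ticks of ALB reach from -0.29 to 0.01.

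The number of called members depended on single libraries. It was 0 without water 1, 2 without water 2, 0 without arsenite 1 and 5 without arsenite 2, in place of 4. The genes called among all genes tested moved too, from 4397 to 1361 without water 1, 860 without arsenite 1 and 2923 without arsenite 2. With 2 samples in a group an exact 2-sided permutation test cannot pass 0.05, since the 4 libraries have 6 arrangements. The calls rest on the spread that edgeR shared across genes, since its fit gave a gene's own replicates no weight. Scaled to library size alone, 3 members were called and the all-gene split became 1132 higher and 3318 lower in place of 1693 and 2704, and the median of all genes shifted by 0.08 on the log2 scale. All 10 genes kept their direction under library-size and RLE scaling.

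**Figure D3:**
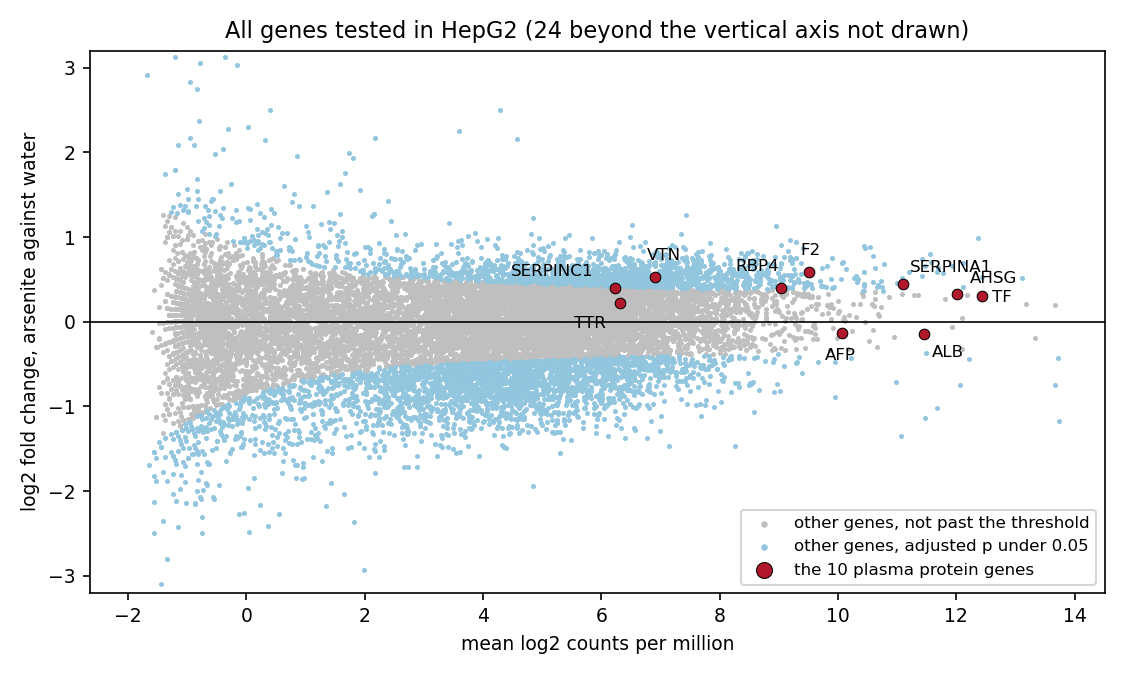
Log2 fold change against mean log2 CPM for the genes tested in HepG2 cells, with the 10 plasma protein genes in red. Genes with an adjusted p under 0.05 are blue and the rest grey, and 24 genes beyond the vertical axis are not drawn. ALB and AFP lie below 0 inside the grey band, and the other 8 genes lie above 0.

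Ratios to albumin and alpha-fetoprotein, the members with negative fitted changes, were formed within each library for the remaining 8 genes. No scaling can move such ratios. They come from the same counts as the CPM values, so they add no separate support. For each of these 8, the count per ALB count was higher in both arsenite libraries than in both water libraries. The same held for 32.6% of all other genes tested. Prothrombin had 0.170 and 0.231 counts per ALB count with water and 0.378 and 0.284 with arsenite, a ratio of the group means of 1.65. Transferrin had 1.57 and 1.81 counts per ALB count with water and 2.43 and 2.16 with arsenite, a ratio of 1.36. The smallest shift was that of transthyretin, at 0.0231 and 0.0273 with water and 0.0343 and 0.0306 with arsenite, a ratio of 1.29. Against AFP the 8 genes were higher in both arsenite libraries, as were 35.5% of all other genes tested. For the 8 genes this outcome was fixed by the CPM values. By CPM, AFP was lower and each of the 8 genes higher in both arsenite libraries than in both water libraries. These ratios share their denominator, ALB was highest in water 1, and every one of the 8 ratios to ALB was lowest in that library and highest in arsenite 1.

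**Figure D4:**
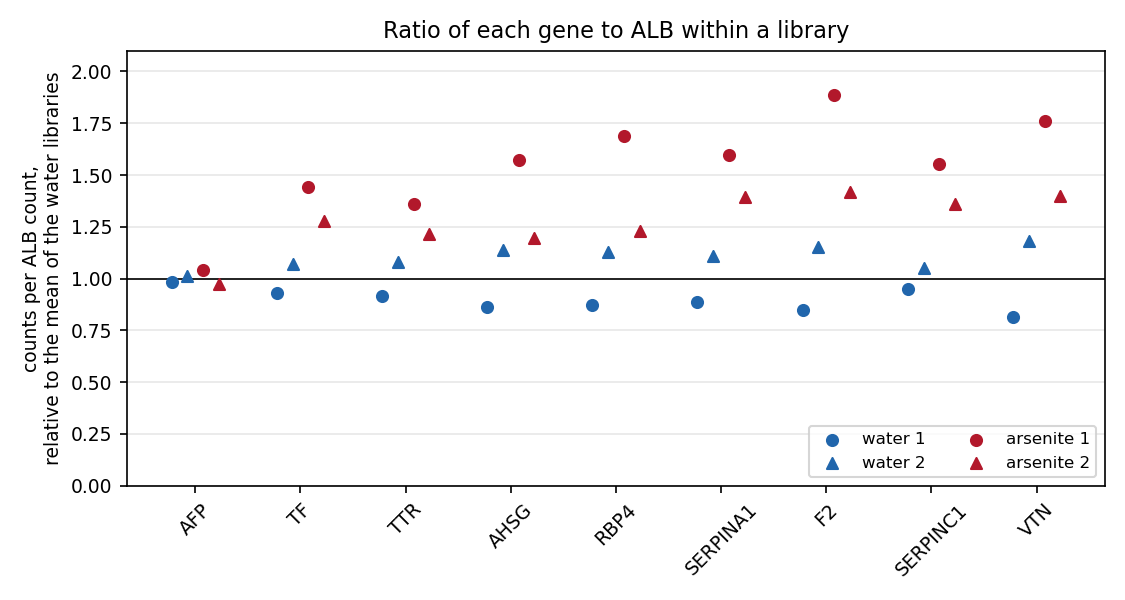
Counts per ALB count of each gene in each HepG2 library, divided by the mean of the 2 water libraries, on an axis from 0. For 8 genes both arsenite libraries (red) lie above both water libraries (blue), with arsenite 1 the highest, while AFP stays close to 1 in all 4.

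Among the 8 genes, ratios to transferrin were higher with arsenite for some genes and overlapped or were lower for others. Alpha-1-antitrypsin had 0.364 and 0.395 counts per TF count with water and 0.421 and 0.415 with arsenite. Prothrombin had 0.108 and 0.128 with water and 0.156 and 0.132 with arsenite. Antithrombin was also higher, at 0.01339 and 0.01291 with water and 0.01418 and 0.01395 with arsenite. Transthyretin was lower relative to transferrin, at 0.0147 and 0.0151 with water and 0.0141 and 0.0142 with arsenite. For fetuin-A, retinol-binding protein and vitronectin the ratios to transferrin overlapped between the groups. With 2 libraries a group these orders are descriptions, and the share of all genes with such ratios to transferrin was not computed.

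Per gene length the order of the 10 genes was led by fetuin-A, at 1600 ± 108 RPKM with water and 1896 ± 170 with arsenite (SD, n = 2), followed by albumin, at 895 ± 115 and 765 ± 79.6. Transferrin came next at 592 ± 17.2 and 689 ± 14.3 RPKM, then alpha-1-antitrypsin at 392 ± 11.2 and 503 ± 4.73. Transferrin, the leader by counts, thus stood behind fetuin-A and albumin per length. With water, alpha-fetoprotein (354 ± 38.5 RPKM) came before retinol-binding protein (322 ± 17.8) and prothrombin (234 ± 21.0), the first pair overlapping. With arsenite the order was retinol-binding protein (401 ± 48.5), prothrombin (332 ± 32.0) and alpha-fetoprotein (305 ± 18.1), the latter pair overlapping, so that alpha-fetoprotein moved from the fifth to the seventh place. Vitronectin, antithrombin and transthyretin formed a lower tier, from 34.8 ± 0.43 RPKM for transthyretin to 41.8 ± 5.56 for vitronectin with water, and from 38.4 ± 0.98 to 56.9 ± 3.32 with arsenite. Vitronectin and antithrombin overlapped with water and lay apart with arsenite. The lengths behind these values were recovered from the deposited counts and RPKM. Which exons they cover was not examined, and they may exceed the length of the main mRNA. The library kit does not mark strand, and whether reads of these genes were shared with overlapping genes was not examined.

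Together the 10 genes took 1.64% and 1.61% of all counts with water and 1.82% and 1.81% with arsenite. Exact 95% binomial intervals were 1.638 to 1.647%, 1.601 to 1.610%, 1.814 to 1.824% and 1.803 to 1.813%, and they cover counting error only. The difference lay in the 8 genes other than albumin and alpha-fetoprotein, whose sum was 1.19% and 1.22% with water and 1.48% and 1.43% with arsenite. Albumin and alpha-fetoprotein summed to 0.454% and 0.381% with water and 0.334% and 0.381% with arsenite, overlapping between groups. Of the counts of the 10 genes, albumin took 20.1% and 17.1% with water and 13.1% and 15.3% with arsenite.

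**Figure D5:**
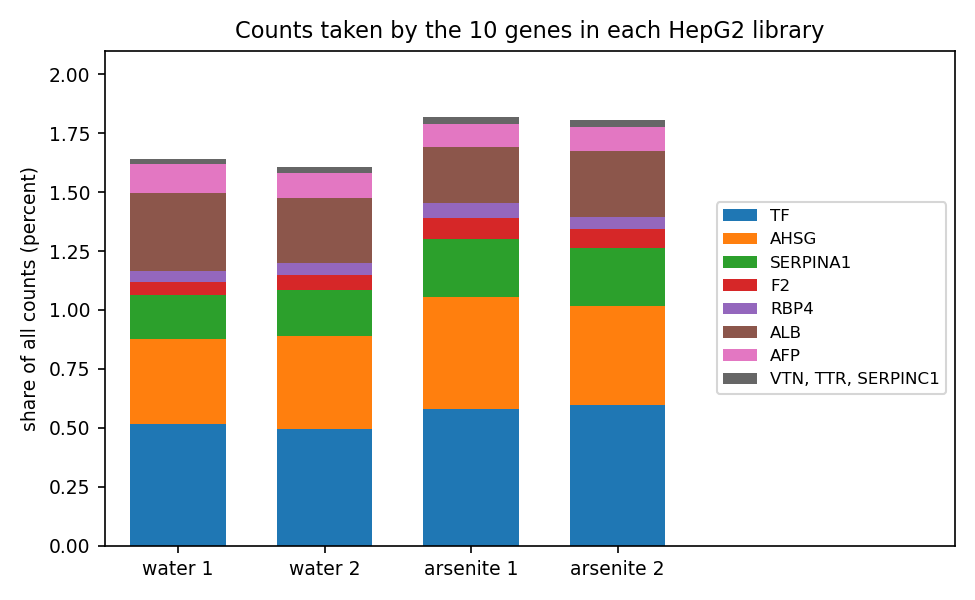
Share of all counts taken by the 10 genes in each HepG2 library, stacked by gene, in percent from 0. The bars with arsenite (1.82% and 1.81%) are higher than those with water (1.64% and 1.61%), and the ALB part is largest in water 1.

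A separate set of 23 tested genes had at most 3 counts over both water libraries and at least 10 in each arsenite library, and their identities are not annotated here. They summed to 9 and 7 counts with water and to 1377 and 1144 counts with arsenite, 0.00506% and 0.00418% of the arsenite libraries. Their part in the values of the plasma protein genes was not tested.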

How the data were processed

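Total RNA was turned into libraries with Illumina's TruSeq RNA reagents, according to the labels' protocols. GRCh38, featureCounts 1.4.6-p4, STAR 2.4.1d and bcl2fastq 1.8.4 are named, without roles, in the submitters' processing notes. The authors deposited raw counts per gene and RPKM values, per the file headers. The deposited RPKM were divided by library totals that changed in a cycle of 14 rows, so that 7.14% of HepG2 values used their own total. RPKM were therefore recomputed here, with lengths recovered from the same relation. NIH3T3 columns repeat after 47729 rows and were left out.

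The 4 HepG2 libraries were fitted in edgeR 4.0.16 (R 4.3.3) over all genes: default filter on low counts, TMM, quasi-likelihood test, 2-sided, Benjamini-Hochberg. Intervals of folds were derived from the same fit. Alternatives used DESeq2 1.42.0, limma-voom and limma on log2(RPKM + 1) or log2(RPKM + 0.1) (limma 3.58.1), other scaling and filters, removal of length trends (loess span 0.5), a test against a fold of 1.2, and each library left out in turn. Tables were made in Python 3.11.15 (pandas 2.3.3, scipy 1.17.1). Replicates, numbered in accession order, pair nothing; they differed by more than sampling noise (chi-square over degrees of freedom 18.5 with water, 26.7 with arsenite).

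The genes and tests were chosen with earlier results of these data known. All 10 members were named. Lists of other plasma proteins, clotting and complement genes, liver transcription factors, secretory genes and cell type markers were not run, because the name tables used here matched 0 identifiers. No sequences are shown for the same reason.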

Additional observations from a re-analysis of the deposited data

How the results depend on the processing

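Over 18 alternatives, 140 of 180 member values kept their direction and their side of the threshold. Log2 fold changes that crossed it are given here. Higher past the threshold were TF without a filter on low counts (0.31) and with length trends removed (0.46), AHSG in DESeq2 (0.36), limma-voom (0.33) and without the filter (0.34), and SERPINC1 with RLE scaling (0.43) and DESeq2 (0.43). No longer past it were RBP4 with library size alone (0.32), RBP4 and SERPINA1 with own-total RPKM (0.31 and 0.36), and RBP4 (0.40), SERPINA1 (0.44) and VTN (0.53) against a fold of 1.2, which asks for a larger change. The deposited RPKM, whose divisors differed between the HepG2 libraries of a row by up to 1.76-fold, called 0 members: with a pseudocount of 1, with or without a filter, RBP4 was at 0.0547, SERPINA1 and F2 at 0.30, VTN at 0.32 and TF reversed at -0.14; with 0.1 the values were 0.0548, 0.30, 0.30, 0.32 and -0.14. Leaving out 1 library gave ALB -0.29 to 0.0098 (reversed without water 1), AFP -0.26 to -0.0016, TF 0.26 to 0.35, TTR 0.20 to 0.26, AHSG 0.24 to 0.48, RBP4 0.28 to 0.58, SERPINA1 0.43 to 0.50, F2 0.49 to 0.75, SERPINC1 0.33 to 0.47 and VTN 0.42 to 0.65. It gave 0 to 5 called members and 860 to 4504 called genes. Called members were 2 with own-total RPKM and 1 against a fold of 1.2. Called genes were 912 (pseudocount 1), 869 (0.1) and 0 (no filter; 3833 at an unadjusted p under 0.05, limma) with the deposited RPKM and 2498 against a fold of 1.2; for the RPKM without a filter the cause was not tested.

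The share of counts, 1.62% with water and 1.81% with arsenite on average, was 2.23% and 2.48% without the 100 most abundant other genes in the denominator, 1.32% and 1.56% without ALB, and 1.51% and 1.71% without AFP. Leaving out 1 library, chosen after seeing the data, gave shares of 1.61 to 1.64% and 1.81 to 1.82%, and AFP to ALB ratios of 0.377 to 0.388 with water and 0.373 to 0.398 with arsenite. The alternative for the list of other plasma proteins was not run. Each member had at least 1761 counts in every library, and the effect of depth was not tested.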
